A study of Homo sapiens with 6 samples.

Results

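Neurofilament and neuronal marker mRNAs were followed in 2 groups of 3 arrays, HEK293 Flp-In cells with constitutive expression of FLAG-HA-tagged TRIM71 and the parental HEK293 Flp-In cells. The genes were the neurofilament subunits NEFL, NEFM and NEFH, the related filament proteins INA and NES, the microtubule genes MAP2, TUBB3 and STMN2, the nuclear marker RBFOX3 and the growth cone gene GAP43. They make up 10 genes with 12 probesets, of 32321 probesets on the array. Of these genes, 9 had at least 1 probeset annotated to them alone, out of 18404 such genes on the array. TUBB3 had only a probeset shared with its neighbour MC1R, which is described apart.

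HEK293 is an established line derived from human embryonic kidney, and Flp-In cells carry a recombination site that takes up a transgene. TRIM71 belongs to the TRIM-NHL proteins, which bind RNA, and is best known for its role in early embryonic and pluripotent cells. Hygromycin B was in the medium of the TRIM71 line and not named for the parental line, so transgene, drug and other differences between the lines cannot be told apart. The promoter of the transgene, and whether the line is 1 clone, are not given in the sources used here. The labels state triplicates only, so p-values set group differences against the spread between these arrays, which may be technical.

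Neurofilaments are the intermediate filaments of neurons. The light chain forms the core of the filament and copolymerizes with the medium and heavy chains, whose long tails are heavily phosphorylated in axons, and with alpha-internexin, the product of INA. Nestin, from NES, marks neural progenitors. HEK293 cells are known to contain neurofilament proteins and other neuronal mRNAs although they were derived from kidney tissue.

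Of the 9 genes with a probeset of their own, 4 fell in the TRIM71 line, 0 rose and 5 did not pass the test (limma, Benjamini-Hochberg adjusted p under 0.05 over all probesets). NEFL, MAP2, RBFOX3 and INA fell, by 2.72-fold, 2.32-fold, 2.09-fold and 1.54-fold. At an unadjusted p under 0.05, 5 were lower and 0 higher. The share of all genes at that threshold was not counted, so nothing is read from these 2 counts. At the adjusted threshold 12.2% of all genes fell, 10% rose and 22.2% were called in either direction. The median log2 fold change over all genes was -0.01, against -0.28 for the 9 genes. By at least 2-fold, 3 of the 9 genes fell, against 0.837% of all genes, and RBFOX3 is among the 3 through 1 of its 3 probesets only (log2 fold change -0.37 with the probesets averaged). The groups did not overlap for 5 of the 9 genes (55.6%), against 43.6% of all genes. The genes were chosen with earlier results of these data known, so these shares are a description without a test.

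TRIM71 itself checked the labels, at 10.74 ± 0.11 in the TRIM71 line and 7.40 ± 0.16 in the parental line (log2 expression, SD, n = 3 each). Permuting the array labels gave an exact two-sided p of 0.1, the floor of this design. Arrays of a group correlated at 0.996 to 0.997 over the probesets (Pearson), and arrays of different groups at 0.991 to 0.994. Leaving out any 1 array lowered the number of fallen probesets, 2677 (8.28%) with all arrays, to between 1566 and 2026. It was 1597 without parental replicate 2 and 1566 without TRIM71 replicate 1. Risen probesets, 2571 (7.95%) with all arrays, came to 1320 without parental replicate 2 and 1702 without parental replicate 3. They came to 1452 without TRIM71 replicate 1 and 1335 without TRIM71 replicate 2. Without parental replicate 1 they came to 2042, and without TRIM71 replicate 3 to 2077. NEFL, MAP2, RBFOX3 and INA passed the test in each of these fits. In RNA from whole cultures, fewer cells of a type and less RNA per cell cannot be told apart.

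The bases before the RefSeq start sites of INA and MAP2, which fell, are shown with those of NES, which did not pass. They are printed 5′ to 3′ on the gene's strand (GRCh38.p14, RefSeq), and capitals mark motif matches on either strand. The motifs were the left and right parts of RE1, the element bound by the neuronal gene repressor REST (TTCAGCACC and GGACAG), the TATA box (TATAAA), the CCAAT box (CCAAT), the GC box (GGGCGG) and the E-boxes CAGCTG and CAGATG. Matches do not overlap each other in these windows.
INA (chr10:103276888-103277137, plus strand): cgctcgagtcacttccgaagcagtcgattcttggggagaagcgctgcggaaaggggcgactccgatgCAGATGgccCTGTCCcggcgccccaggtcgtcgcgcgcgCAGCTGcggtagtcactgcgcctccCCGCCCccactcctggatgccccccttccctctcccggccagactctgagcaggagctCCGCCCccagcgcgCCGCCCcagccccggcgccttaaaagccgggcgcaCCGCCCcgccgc
MAP2, start farthest upstream (chr2:209579082-209579331, plus strand): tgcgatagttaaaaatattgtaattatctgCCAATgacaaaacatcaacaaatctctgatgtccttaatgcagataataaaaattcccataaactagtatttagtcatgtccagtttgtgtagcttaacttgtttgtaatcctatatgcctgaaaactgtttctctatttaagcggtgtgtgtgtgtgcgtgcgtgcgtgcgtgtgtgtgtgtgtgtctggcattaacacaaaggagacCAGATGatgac
MAP2, middle start (chr2:209579357-209579606, plus strand): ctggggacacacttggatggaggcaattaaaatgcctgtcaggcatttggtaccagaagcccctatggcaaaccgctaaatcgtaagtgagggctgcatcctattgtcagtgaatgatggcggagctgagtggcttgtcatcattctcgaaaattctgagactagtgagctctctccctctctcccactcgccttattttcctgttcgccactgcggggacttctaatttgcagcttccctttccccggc
MAP2, start farthest downstream (chr2:209661246-209661495, plus strand): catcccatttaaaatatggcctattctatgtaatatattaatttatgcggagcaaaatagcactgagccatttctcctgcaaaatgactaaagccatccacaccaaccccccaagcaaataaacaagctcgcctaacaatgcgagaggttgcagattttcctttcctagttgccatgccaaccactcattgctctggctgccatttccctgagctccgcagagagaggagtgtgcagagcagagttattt
NES (chr1:156677408-156677657, minus strand): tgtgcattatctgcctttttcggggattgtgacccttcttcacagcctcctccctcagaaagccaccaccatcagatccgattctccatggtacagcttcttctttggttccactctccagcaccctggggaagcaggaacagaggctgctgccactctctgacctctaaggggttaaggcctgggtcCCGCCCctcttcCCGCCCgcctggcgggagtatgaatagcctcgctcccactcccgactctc

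The INA window is rich in G and C (72.8%) and holds 30 CpG pairs, against medians of 58% and 11 over 35116 RefSeq windows of 250 bases. It holds 4 GC boxes, both E-boxes and the right part of RE1. The MAP2 windows have 37.6%, 51.2% and 44.4% G and C, and only the one farthest upstream holds a match, to the CCAAT box and to CAGATG. The NES window has 58% G and C and holds 2 GC boxes.

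The same motifs were counted in the windows of 6 members, INA, NES, MAP2, TUBB3, RBFOX3 and GAP43. Windows on chromosome 8 were left out, so NEFL, NEFM and STMN2 are not covered, and NEFH had no window. The left part of RE1 was in none of 20 windows of 6 members and in 0.288% of all windows. The right part was in 8 of the 20 windows and in 17.2% of all windows, and GC boxes were in 5 of 20 and in 42.6%. RBFOX3 accounts for 12 of the 20 windows, some of which overlap. A match is a run of letters, and an absent one says nothing of a factor at other distances.

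NEFL, the neurofilament light chain, had the largest fall of the 10 genes. Its log2 expression was 10.91, 10.97 and 11.00 on the TRIM71 arrays, against 12.41, 12.44 and 12.37 on the parental arrays. The 3 TRIM71 arrays lay well below all 3 parental arrays, and the arrays of a group lay close together. The mean was 10.96 ± 0.05 in the TRIM71 line and 12.41 ± 0.04 in the parental line (SD, n = 3 each), a log2 fold change of -1.45 (SE 0.05, 95% interval -1.56 to -1.33, adjusted p = 9.5e-05). Counting NEFL, 52 of 18404 genes (0.283%) passed the test with a log2 fold change as low or lower.

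INA, whose product copolymerizes with the neurofilament chains, was lower as well. Its log2 expression was 10.38, 10.39 and 10.34 on the TRIM71 arrays, against 11.03, 10.98 and 10.95 on the parental arrays. The groups were again fully apart, with a narrower gap than for NEFL. The log2 fold change was -0.62 (SE 0.05, adjusted p = 8.0e-04).

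NEFM, the medium chain, did not pass the test. Its log2 expression was 6.09, 6.42 and 6.25 on the TRIM71 arrays, against 6.41, 6.62 and 6.59 on the parental arrays. The highest TRIM71 array lay just above the lowest parental one, so the groups overlapped. The log2 fold change was -0.28 (95% interval -0.53 to -0.04, unadjusted p = 0.0277, adjusted p = 0.113). NEFH, the heavy chain, had values between 5.14 and 5.34 on the TRIM71 arrays and between 4.98 and 5.31 on the parental arrays, which overlap (log2 fold change 0.09, 95% interval -0.14 to 0.33, adjusted p = 0.59).

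Differences within each array set the neurofilament genes against each other, free of any shift of a whole array. There, the log2 value of NEFL minus that of NEFM was 4.70 ± 0.14 in the TRIM71 line and 5.87 ± 0.11 in the parental line, a shift of -1.16. Each probeset has its own brightness, so only the shift can be read, as a shift of measured values. NEFM and NEFH lay below the median of all probesets, 6.95, in each line. Dim probesets understate fold changes, so the shifts against NEFM and NEFH do not compare the changes of the mRNAs. The shift against INA was -0.83 and that against NEFH -1.54. No array of the TRIM71 line reached the parental range in any of these differences. They were chosen with the values of both genes known and are a description without a test.

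**Figure D1:**
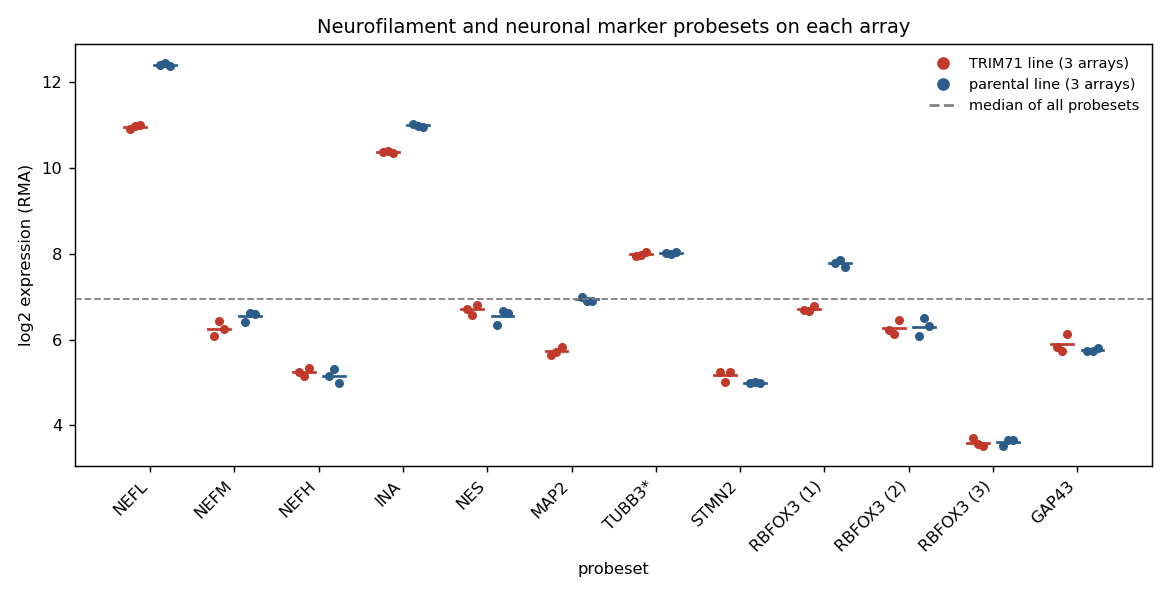
Log2 expression (RMA) of the 12 probesets on each array, with TRIM71 arrays as red points on the left and parental arrays as blue points on the right of each pair, short lines at group means (n = 3) and a dashed line at the median of all probesets, 6.95. The asterisk marks the probeset that TUBB3 shares with another gene, and numbers in parentheses order the RBFOX3 probesets by brightness; the TRIM71 points lie clearly below the parental points for NEFL, INA, MAP2 and RBFOX3 (1).

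NES and GAP43, a marker of neural progenitors and a phosphoprotein of growing axons, did not pass the test. NES lay between 6.57 and 6.82 on the TRIM71 arrays and between 6.33 and 6.67 on the parental arrays (log2 fold change 0.16, 95% interval -0.10 to 0.42, adjusted p = 0.39). GAP43 lay between 5.74 and 6.14 on the TRIM71 arrays and between 5.72 and 5.80 on the parental arrays (0.15, -0.11 to 0.40, adjusted p = 0.435). For both genes the groups overlapped.

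MAP2 encodes a microtubule-associated protein of neuronal dendrites and cell bodies. Its log2 expression was 5.64, 5.70 and 5.82 on the TRIM71 arrays, against 7.00, 6.90 and 6.91 on the parental arrays. The groups were far apart, from near the median of all probesets in the parental line to well below it in the TRIM71 line. The log2 fold change was -1.21 (SE 0.06, 95% interval -1.37 to -1.06, adjusted p = 2.4e-04).

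STMN2, an axonal stathmin that destabilizes microtubules, was higher on every TRIM71 array without passing the test. Its log2 expression was 5.25, 5.01 and 5.25 on the TRIM71 arrays, against 4.99, 5.01 and 4.99 on the parental arrays. TRIM71 replicate 2 stood next to the parental arrays, and the other two TRIM71 arrays stood apart from them. The log2 fold change was 0.17 (95% interval -0.00 to 0.35, adjusted p = 0.178), and STMN2 passed without TRIM71 replicate 2 (0.25, adjusted p = 0.0406).

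The probeset that TUBB3, the neuronal class of beta-tubulin, shares with MC1R lay between 7.96 and 8.05 on the TRIM71 arrays and between 7.99 and 8.04 on the parental arrays. Its log2 fold change was -0.02 (95% interval -0.14 to 0.10, adjusted p = 0.836). It cannot be assigned to either gene.

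RBFOX3 encodes the splicing factor known as NeuN, a nuclear marker of mature neurons, and its 3 probesets disagreed. At the brightest, log2 expression was 6.70, 6.66 and 6.79 on the TRIM71 arrays, against 7.78, 7.86 and 7.70 on the parental arrays. The groups did not overlap there, and the probeset fell (log2 fold change -1.07, SE 0.06, adjusted p = 3.5e-04). The middle probeset averaged 6.26 ± 0.16 in the TRIM71 line and 6.30 ± 0.21 in the parental line (-0.03, 95% interval -0.34 to 0.28, adjusted p = 0.904). The dimmest averaged 3.60 ± 0.10 in the TRIM71 line and 3.61 ± 0.08 in the parental line (-0.01, -0.19 to 0.16, adjusted p = 0.927). Both overlapped between groups, and both lay below the median of all probesets, 6.95, in each line. Dim probesets understate fold changes, so their intervals bound the measured change only.

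Within each array, the brightest RBFOX3 probeset minus the middle one was 0.45 ± 0.10 in the TRIM71 line and 1.48 ± 0.19 in the parental line, a shift of -1.03, which is likewise a description. With the 3 probesets averaged, the log2 fold change was -0.37 (adjusted p = 0.0047). The deposited values alone do not say which RBFOX3 transcripts each probeset reads.

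**Figure D2:**
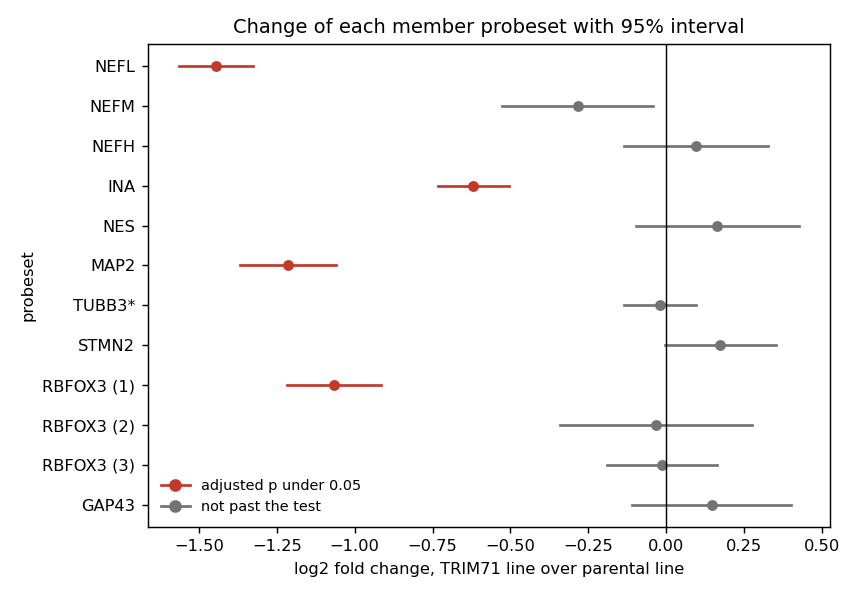
Log2 fold change of the TRIM71 line over the parental line (x axis) for the 12 probesets (y axis), with 95% intervals from the limma fit as lines and probesets past the test in red. The intervals of NEFL, INA, MAP2 and RBFOX3 (1) lie between -1.56 and -0.50, and those of all other probesets but NEFM reach 0.

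All 5 genes that did not pass had both group means below the median of all probesets, 6.95. In that range 4.64% of genes fell and 2.58% rose, against 16.9% and 14.7% of genes whose higher group mean reached the median. NEFL and INA lay above the median in both lines. RBFOX3 lay above it in the parental line only, at 6.71 in the TRIM71 line and 7.78 in the parental line, and MAP2 below it in both, at 5.72 in the TRIM71 line and 6.94 in the parental line. The higher group mean of a fallen gene is its parental one, so the fall itself enters this split and nothing is read from it for these 4 genes. Dim probesets understate fold changes, so for NEFM, NEFH, NES, STMN2 and GAP43 the intervals bound the measured change on these probesets and not the change of the mRNA.

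**Figure D3:**
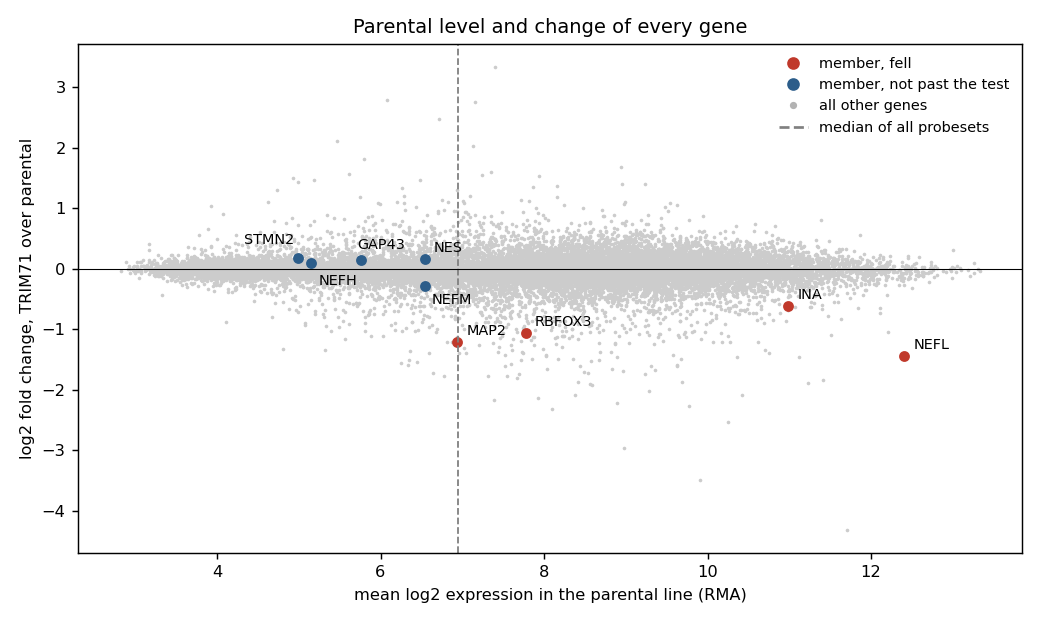
Mean log2 expression in the parental line (x axis, RMA) against the log2 fold change of the TRIM71 line over the parental line (y axis) for 18404 genes in grey, with the 9 neurofilament and neuronal marker genes labelled. NEFL and INA stand at the bright end, at 12.41 and 10.99, and the 5 genes that did not pass stand left of the dashed median at 6.95.

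The fallen genes lie on different chromosomes, NEFL on 8, INA on 10, MAP2 on 2 and RBFOX3 on 17. Of the 3 protein-coding genes measured on each side of them, 0 of 6 around NEFL changed, and NEFM is the immediate neighbour of NEFL (RefSeq order, GRCh38.p14). Around INA 1 of 6 rose, CNNM2 (0.62, adjusted p = 8.2e-04), a magnesium transport protein. Around RBFOX3, CANT1 rose by 0.28 and TBC1D16 fell by 0.46 on the log2 scale. These neighbours were chosen by place and not by their values.

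MAP2 fell on a chromosome whose genes were higher more often than others. Of 1154 chromosome 2 genes, 28% rose and 6.41% fell, with a median log2 fold change of 0.08, while 8.84% rose and 12.6% fell among the other 17250 genes. Of the 6 measured genes around MAP2, 3 rose and 0 fell in the limma fit, among them IDH1 (0.63) and KANSL1L (0.78). The part of the chromosome in these values was not tested. The other 3, PTH2R (0.10), UNC80 (-0.12) and RPE (0.17), did not pass.

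**Figure D4:**
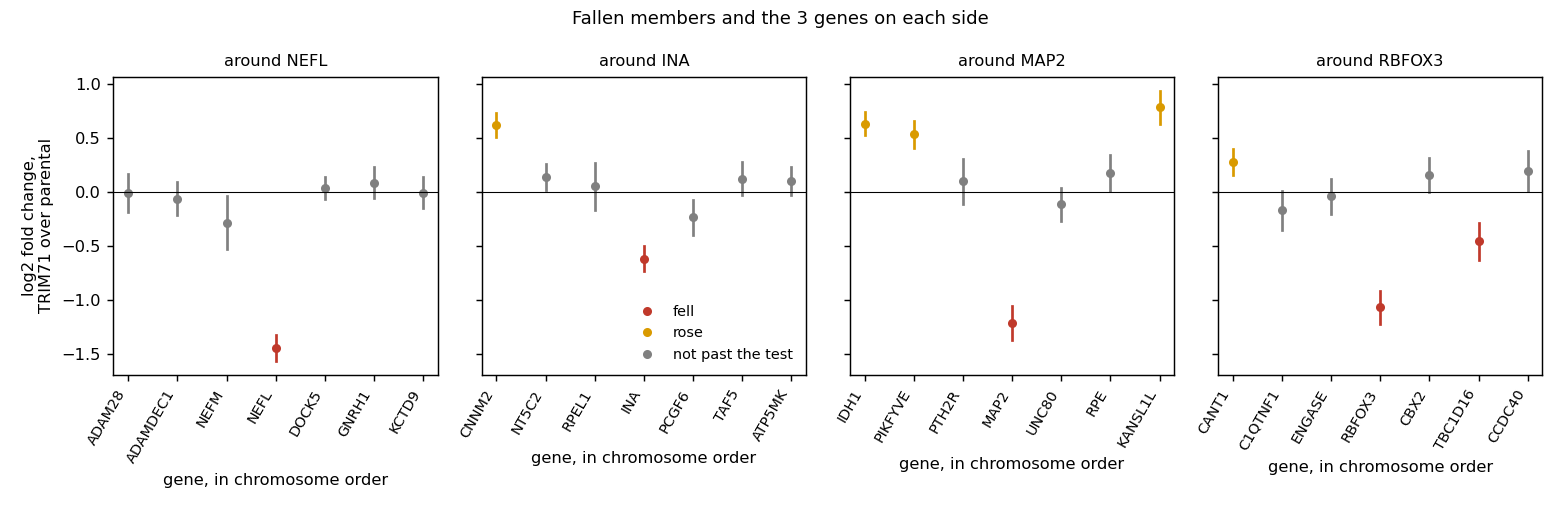
Log2 fold change of the TRIM71 line over the parental line (y axis) with 95% intervals for NEFL, INA, MAP2, RBFOX3 and the 3 measured protein-coding genes on each side, in chromosome order (x axis). Each fallen gene stands below all of its neighbours, and around MAP2 the genes that changed were higher, by 0.53 to 0.78.

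REST, the repressor of neuronal genes that binds RE1, rose in the TRIM71 line. It averaged 9.57 ± 0.01 in the TRIM71 line and 9.25 ± 0.02 in the parental line (SD, n = 3 each), a difference of 0.31 on the log2 scale (adjusted p = 0.0053). Its corepressor RCOR1 did not pass (-0.05, adjusted p = 0.575). Of 26 neuronal transcription factor and REST complex genes measured, 4 rose, 2 fell and 20 did not pass, and the median was -0.05. For this list and those that follow, the shares over all genes were 10% risen and 12.2% fallen. ZEB2, a repressor that lies on chromosome 2, rose at both probesets (0.65 and 0.82). POU4F1, a homeodomain factor of sensory neurons, fell by 0.54 on the log2 scale. ID2, an inhibitor of basic helix-loop-helix factors that lies on chromosome 2 as well, fell by 0.68. EBF3 (0.28) passed in the full fit and not without parental replicate 2 (adjusted p = 0.0503), where 2 of the 26 genes rose. HES1, a Notch target, did not pass (-0.11, adjusted p = 0.168).

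Among 11 other intermediate filament genes, 1 rose, 2 fell and 8 did not pass, with a median of -0.09. PRPH, peripherin, the filament protein of peripheral neurons, fell to 6.80 ± 0.11 in the TRIM71 line, against 7.58 ± 0.08 in the parental line (a log2 change of -0.78, adjusted p = 0.0016). VIM, vimentin, rose to 11.51 ± 0.02 in the TRIM71 line, against 11.11 ± 0.03 in the parental line (0.40, adjusted p = 0.0028). KRT8, an epithelial keratin, fell by 0.22 on the log2 scale with a call that ended without any 1 of the 6 arrays (adjusted p between 0.0641 and 0.124), which left 1 fallen gene each time. A further gene passed upward without parental replicate 3. The lamin LMNB2 (-0.09, adjusted p = 0.232) and the keratin KRT18 (-0.05, adjusted p = 0.647) did not pass.

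Genes for the kinases, linkers, motors and turnover factors of neurofilaments rose in 7 cases and fell in 3 of 24, with 14 not past the test and a median of 0.08. KIF5C, a neuronal kinesin heavy chain on chromosome 2, had log2 expression of 10.60, 10.64 and 10.60 on the TRIM71 arrays, against 9.55, 9.50 and 9.56 on the parental arrays. The groups were fully apart and tight (1.08, adjusted p = 1.4e-04). The stress kinase MAPK8 rose by 0.42. DNAJB6, a co-chaperone, rose by 0.44 at its brightest probeset and did not pass at the other (0.16, adjusted p = 0.133). HSPB1, a small heat shock protein, fell by 0.36 on the log2 scale.

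KIF5B, the ubiquitous kinesin heavy chain, and CDK5R1, an activator of CDK5, fell by 0.20 and 0.18 on the log2 scale. Both calls ended without any 1 array (adjusted p between 0.0754 and 0.109 for KIF5B and between 0.0785 and 0.129 for CDK5R1), so 1 gene of the list fell in each such fit. TRIM2, a relative of TRIM71 that ubiquitinates the neurofilament light chain, did not pass (0.09, adjusted p = 0.39). PPP2CA, the catalytic subunit of a tail phosphatase (0.0017, adjusted p = 0.988), and the dynein heavy chain DYNC1H1 (0.08, adjusted p = 0.317) did not pass.

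Of 26 microtubule-associated protein and stathmin genes other than MAP2 and STMN2, 4 rose, 5 fell and 17 did not pass, with a median of -0.02. MAP1A and MAP1B, structural microtubule-associated proteins of neurons, rose by 0.95 (adjusted p = 0.0016) and 0.51 (adjusted p = 0.0015). DPYSL3 and CRMP1, collapsin response mediators of axon growth, fell by 0.51 and 0.44 on the log2 scale (adjusted p = 0.0017 and 0.0063).

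STMN1, a stathmin of dividing cells, fell by 0.23 at its brightest probeset and differed by -0.04 at its other one (adjusted p = 0.688). The other one was dim, at 5.54 in the TRIM71 line and 5.58 in the parental line, against 10.86 and 11.09 at the brightest. MAPRE1, a microtubule end-binding protein, rose by 0.25. The MAPRE1 call ended without parental replicate 2 or 3 or TRIM71 replicate 1 or 2 (adjusted p between 0.0546 and 0.0659), where 2 genes rose, and the STMN1 call ended without any 1 array but parental replicate 3 (0.0534 to 0.0835). The number fallen was 2 without parental replicate 2, TRIM71 replicate 1 or TRIM71 replicate 2 and 3 without parental replicate 1. KIF2A (0.03, adjusted p = 0.702) and MAPRE2 (-0.01, adjusted p = 0.901) did not pass.

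Of 16 tubulin genes other than TUBB3, 2 rose, 3 fell and 11 did not pass, with a median of 0.04. TUBB4A, a beta-tubulin of brain, fell by 0.30 and TUBE1, the epsilon-tubulin of centrioles, by 0.44 on the log2 scale. TUBA4A, on chromosome 2, fell by 0.35 (adjusted p between 0.0055 and 0.0119 for the 3 genes). TUBD1, the delta-tubulin, rose by 0.36. TUBA1C rose by 0.23 with a call that ended without any 1 array (adjusted p between 0.0504 and 0.105), which left 1 risen gene. The bright beta-tubulins TUBB (0.04, adjusted p = 0.589) and TUBB4B (0.10, adjusted p = 0.253) did not pass, and tubulin genes have near-identical copies that can share probes.

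Among 23 neuronal RNA-binding protein genes other than RBFOX3, 3 rose, 1 was lower and 19 did not pass the test, and the median was 0.03. RBFOX2 (0.15, adjusted p = 0.0715) and RBFOX1 (-0.05, adjusted p = 0.582), paralogues of RBFOX3, did not pass. NOVA1 rose by 0.35 and PTBP2, the neuronal polypyrimidine tract-binding protein, by 0.36. ELAVL1, the ubiquitous HuR, rose by 0.26, a call that needed parental replicate 2 (adjusted p = 0.0525 without it). The neuronal ELAVL2 (0.13), ELAVL3 (0.07) and ELAVL4 (-0.32, adjusted p = 0.0811) did not pass.

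NOVA2 fell by 0.32 on the log2 scale, and without parental replicate 1 or 2 or TRIM71 replicate 1 or 2 its call ended (adjusted p between 0.0771 and 0.09) and 0 of the 23 genes fell. The abundant splicing regulators PTBP1 (-0.06, adjusted p = 0.482) and KHDRBS1 (0.06, adjusted p = 0.492) did not pass.

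Growth cone and GAP43-related genes rose in 5 cases and fell in 3 of 20, with 12 not past the test and a median of 0.01. PRKCB, a protein kinase C isoform, fell to 7.81 ± 0.10 in the TRIM71 line, against 8.92 ± 0.09 in the parental line (a log2 change of -1.11, adjusted p = 5.3e-04). PRKCE, another isoform of the kinase family that phosphorylates GAP43, lies on chromosome 2 and rose by 0.44. The actin-binding proteins FSCN1 and DBN1 rose by 0.53 and 0.41, and ABLIM1 fell by 0.28 on the log2 scale. CNTN1, an axonal adhesion protein, fell by 0.23 with a call that ended without any 1 array (adjusted p between 0.0581 and 0.112). MARCKSL1 (0.08, adjusted p = 0.335) and MARCKS (0.0084, adjusted p = 0.935) did not pass.

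Of 18 neural progenitor genes beside NES, 4 rose, 3 fell and 11 did not pass, with a median of 0.09. SLC1A3, a glial glutamate transporter, rose by 0.58, GLI3, a Hedgehog pathway factor, by 0.53 and CDH2, N-cadherin, by 0.42. SOX2, a progenitor transcription factor, fell by 0.46 on the log2 scale. ZIC1, at 5.18 in the TRIM71 line and 5.87 in the parental line, fell by 0.69. Both group means of ZIC1 and of SOX1 lay below the median of all probesets, 6.95. SOX1 fell by 0.28 with a call that ended without any 1 array but parental replicate 3 (adjusted p between 0.0509 and 0.0987). ZIC2 (0.09, adjusted p = 0.218) and PAX6 (0.0012, adjusted p = 0.992) did not pass.

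Of 23 synaptic vesicle and exocytosis genes, 1 rose, 5 fell and 17 did not pass, with a median of -0.05. The vesicle proteins VAMP2 and SYT1 fell by 0.48 and 0.54, and RIMS2, an active zone protein, by 0.77 on the log2 scale (adjusted p between 0.0016 and 0.0105). SYT1 lay below the median of all probesets, 6.95, in each line (5.53 in the TRIM71 line and 6.07 in the parental line). RAB3C, a vesicle GTPase, rose to 7.18 ± 0.08 in the TRIM71 line, against 5.61 ± 0.17 in the parental line (1.57, adjusted p = 3.6e-04). The number fallen was 3 without parental replicate 2, parental replicate 3 or TRIM71 replicate 1. SV2A (0.06, adjusted p = 0.43) and RAB3A (-0.20, adjusted p = 0.104) did not pass.

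Sympathoadrenal and neuroendocrine genes fell in 3 cases and rose in 1 of 19, with 15 not past the test and a median of -0.04. UCHL1, a ubiquitin hydrolase abundant in neurons, fell by 0.32, NSG1, a neuronal endosome protein, by 0.62 and ENO2, neuron-specific enolase, by 0.40 on the log2 scale. The ENO2 call ended without parental replicate 2 (adjusted p = 0.0527). SCG5, a secretory granule protein, rose by 0.47, and GATA2 (0.23, adjusted p = 0.0749) and GATA3 (0.17, adjusted p = 0.0599) did not pass. Both group means of SCG5 and of NSG1 lay below the median of all probesets, 6.95.

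Markers of other cell types were checked beside these results. Of 10 adrenal cortex markers, 0 reached the median of all probesets in either line, and the mean of the list lay between 5.32 and 5.44 on the TRIM71 arrays and between 5.31 and 5.41 on the parental arrays. SULT2A1 rose by 0.57 and 0 fell in the limma fit, where 1 was lower at an unadjusted p under 0.05. Without parental replicate 1, 1 passed downward. CYP11B1 (0.08, adjusted p = 0.651) and INHA (0.09, adjusted p = 0.565) did not pass.

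Of 13 glial markers, 3 reached the median in each line, and the mean of the list lay between 6.23 and 6.26 on the TRIM71 arrays and between 6.34 and 6.41 on the parental arrays. AQP4, an astrocyte water channel, fell by 0.81 and MBP, myelin basic protein, by 0.46 on the log2 scale. S100B fell by 0.43 with a call that ended without parental replicate 2 or 3 or TRIM71 replicate 2 or 3 (adjusted p between 0.0527 and 0.0893). PDGFRA rose by 0.34, and OLIG1 (-0.02, adjusted p = 0.908) and ERBB3 (-0.09, adjusted p = 0.409) did not pass. RMA gives no value of 0, so a dim marker may still be absent. The part of these markers in the results was not tested.

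Of 15 kidney and epithelial markers, 7 reached the median in each line, and the mean of the list lay between 6.83 and 6.92 on the TRIM71 arrays and between 6.85 and 6.94 on the parental arrays. CDH1, E-cadherin, fell to 7.18 ± 0.11 in the TRIM71 line, against 8.83 ± 0.05 in the parental line, and EPCAM, an epithelial adhesion protein, fell by 1.47 and 1.45 on the log2 scale at its probesets. LRP2, megalin, rose by 1.40. CUBN and LHX1 rose by 0.34 and 0.30. CUBN lay below the median of all probesets in each line, at 5.69 in the TRIM71 line and 5.35 in the parental line. The CUBN call ended without parental replicate 2 or 3 or TRIM71 replicate 2 (adjusted p between 0.0508 and 0.0657), where 1 gene rose, and the LHX1 call without any 1 array (0.0526 to 0.0808). The nephron factor WT1 did not pass (-0.09, adjusted p = 0.26). EPCAM and LRP2 lie on chromosome 2 as well.

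**Figure D5:**
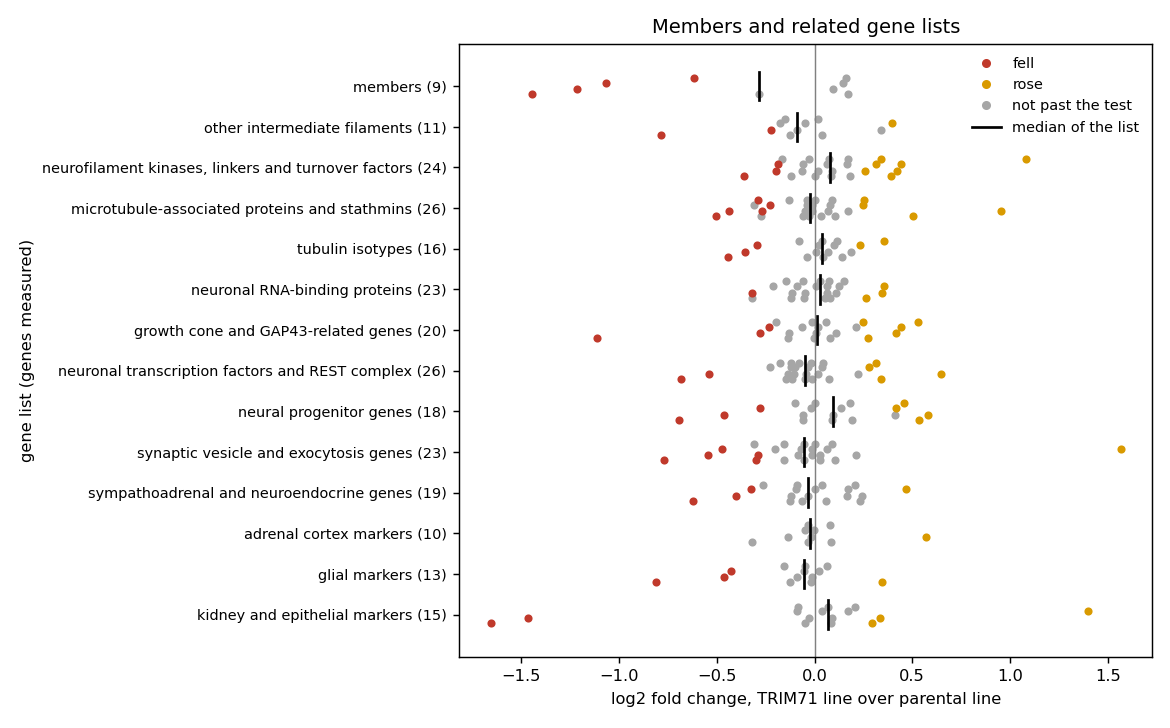
Log2 fold change of the TRIM71 line over the parental line (x axis) for each gene of the 9 members and of 13 related lists (y axis, number of genes measured in parentheses), with fallen genes in red, risen genes in orange, genes not past the test in grey and a black line at each list's median. The median is -0.28 for the members and between -0.09 and 0.09 for the other lists.

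Over the 13 lists, each gene counted once, 37 of 243 genes rose and 35 fell, with a median of -0.01. Of all genes 10% rose and 12.2% fell, with a median of -0.01. Of genes whose higher group mean reached the median of all probesets, 14.7% rose and 16.9% fell. The genes whose 6 mean-centred values lay closest to those of NEFL were ULBP1, a stress ligand of natural killer cells, FSTL4, a secreted follistatin-like protein, and EPCAM, at root mean square differences of 0.022, 0.032 and 0.036. Among the members, MAP2 (0.13) ranked 37 and RBFOX3 (0.19) ranked 90 of 18403 genes, and INA (0.42) ranked 423. NEFM (0.59) ranked 1873, NEFH (0.78) 13873, GAP43 (0.80) 15263, STMN2 (0.81) 15629 and NES (0.81) 15641. With 2 groups of 3 arrays this measure reads mainly the size of the group difference.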

How the data were processed

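RNA was measured on 6 arrays, 3 of the TRIM71 line and 3 of the parental line, grouped by sample title. The authors deposited log2 expression values. RMA and affy are the tools in the submitters' processing notes; versions and probeset annotation are not given in the sources used here. RMA gives the probe intensities of all arrays a common distribution, so a change in total mRNA per cell cannot be seen. Array medians lay between 6.90 and 6.97.

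GEO's platform annotation gave 1 gene symbol to 19158 of 32321 probesets, several to 1388 and none to 11775; 19128 matched RefSeq (GRCh38.p14) by gene ID. A gene stands for its brightest probeset of its own. Using limma 3.58.1 (R 4.3.3), a linear model on group was fitted to every probeset without a filter and called at an adjusted p under 0.05. The number of arrays limits the precision.

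From each list the named genes were up to 3 per direction with the smallest adjusted p and the 2 brightest not past the test, beside the members, TRIM71 and 10 relatives or regulators of members. Members, lists and the within-array differences were chosen with earlier results of these data known. Lists are described by counts and medians, with no set test. Alternatives were 2 variance models, 2 normalizations, 2 filters, 2 ways to collapse probesets, array weights, a block for the replicate number, a stricter threshold and each array left out.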

Additional observations from a re-analysis of the deposited data

How the results depend on the processing

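NEFL, INA, MAP2 and RBFOX3 fell in all 17 alternatives that tested them (MAP2 in 16, since the filter at the median of all probesets removed it and left 3 fallen genes), with log2 fold changes of -1.47 to -1.42, -0.64 to -0.60, -1.26 to -1.17 and -1.11 to -0.37. The RBFOX3 values are those of its brightest probeset, except for the average of its 3 probesets (-0.37). Its middle and dimmest probesets passed in no alternative that tested them. With 1 array left out, 4 members fell each time and 0 to 1 rose, the 1 being STMN2. The probesets that fell numbered 1615 with the replicate block, 1273 at an adjusted p under 0.01 and 1566 to 2026 with 1 array left out. Those that rose numbered 1512, 973 and 1320 to 2077. Deviations of same-numbered arrays from their group means correlated at r = 0.07, -0.19 and 0.11, and those of differently numbered arrays at -0.28 to 0.25. With 3 arrays per group these values cannot decide whether the numbers pair the samples. The block for the replicate number kept all 4 member calls. Directions changed where values were near 0. With 1 array left out these were RBFOX3's middle probeset (-0.14 to 0.067) and its dimmest (-0.072 to 0.03), PPP2CA (-0.016 to 0.028), MAPRE2 (-0.036 to 0.024), MARCKS (-0.0092 to 0.029), PAX6 (-0.038 to 0.027) and OLIG1 (-0.045 to 0.037). Median centring turned PPP2CA (-0.0029) and PAX6 (-0.0033), quantile normalization MARCKS (-0.011) and PAX6 (-0.0020), array weights MAPRE2 (0.0046) and MARCKS (-0.0025), and averaging probesets KRT18 (0.0014). The cause of these changes was not tested. Of the genes named, 15 lost a call with at least 1 array left out.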
